A study of Mus musculus with 6 samples.

Results

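The reads of 416 genes of the GENCODE class TEC were described in fetal mouse hearts. TEC is the annotation's label for transcribed loci, mostly known from unspliced cDNAs, that still await experimental testing. The members were all TEC genes whose scaled reads, summed over the bins of a gene, had a mean of 10 or more over the 6 libraries. They are 416 of 3164 TEC genes in the deposited bin table, which holds 48505 genes in all. A scaled read is a read divided by the size factor that the authors applied to its library. Members were thus chosen by their mean scaled reads over both groups, and the level of a member is a description. Where 3 values are given for a group, they are those of its libraries in the order of their replicate numbers.

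All mice were wild type FVB/NJ, an inbred strain. The 14 dams were 10 weeks old at purchase. Sham dams breathed filtered room air, and nano-TiO2 dams breathed titanium dioxide nanoparticles, a white pigment material, at a target of 12 mg/m3 in a whole-body chamber for 360 minutes a day on 6 non-consecutive days within 8 days from gestational day 5. Fetal hearts were taken on gestational day 15, and each of the 3 libraries per group came from fetal hearts pooled over animals and over both sexes, sequenced as the input of an immunoprecipitation of the RNA mark m6A. The number of litters behind a pool is not given, so any p-value speaks of the variation among pools alone, which may be technical.

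Most introns are removed from a transcript and degraded in the nucleus soon after synthesis, so reads from inside an intron usually come from unspliced or excised RNA. A single-exon locus that lies in an intron of another gene can have its own start site or can be a piece of the surrounding transcript, and sequencing reads alone do not separate these. Library kits that prime reverse transcription with oligo-dT copy RNA from its poly(A) tail, and such primers can also anneal to adenine runs inside a transcript.

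The libraries held between 15735142 and 29740017 reads in the table. The 8 cardiomyocyte markers (Myh6, Myh7, Tnnt2, Actc1, Nppa, Myl7, Myl2 and Tnni3) were detected in every library and together took 28152 to 37993 RPM (reads per 1000000 reads of the library in the table). Markers of other tissues were uneven across the libraries. Sham 2 had 33.8% of its reads in haemoglobin genes while the remaining 5 libraries had 9.40% to 19.3%. The 8 hepatocyte markers took 594 RPM in sham 2 and between 7.32 and 57.4 in the others, and the 4 lung epithelium markers took 1168 in nano-TiO2 3, 256 in nano-TiO2 2, 91.5 in sham 1 and between 0.155 and 10.4 in the rest. In pooled tissue, fewer cells of a type and less RNA per cell cannot be told apart.

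A stretch of sequence around an adenine run is shown for 4 members that lie inside introns, because the reads of intronic TEC genes as a set changed at such runs (below). The 4 were chosen after their values were seen, as the intronic members with the most reads in the 1000 bases before a run of 10 or more adenines that had at least 500 bases of the locus on each side. This choice favours loci with more reads before a run than after it, so the 4 are examples and cannot show a step by themselves. The adenine run is in capitals, with 60 bases on either side in the direction of the TEC transcript, from GENCODE M21.
Gm37968: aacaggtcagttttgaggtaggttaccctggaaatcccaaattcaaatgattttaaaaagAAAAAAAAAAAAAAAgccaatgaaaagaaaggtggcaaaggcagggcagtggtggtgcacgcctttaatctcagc
A130012E19Rik: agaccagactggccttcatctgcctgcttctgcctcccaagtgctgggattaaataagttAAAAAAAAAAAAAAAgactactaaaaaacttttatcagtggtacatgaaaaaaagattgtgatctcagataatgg
Gm45819: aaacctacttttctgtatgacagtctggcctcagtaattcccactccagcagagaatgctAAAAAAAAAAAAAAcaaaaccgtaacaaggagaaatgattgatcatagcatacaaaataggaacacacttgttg
Gm42992: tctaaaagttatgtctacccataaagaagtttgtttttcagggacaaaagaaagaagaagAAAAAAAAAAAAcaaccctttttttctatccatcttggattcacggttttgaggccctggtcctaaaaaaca

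Gm37968 lies in an intron of Rab33b (a Golgi GTPase) on chromosome 3 and is 3201 bases long. The run spans positions 1298 to 1312 of its transcript. In the 850 bases that end 150 bases before the run it had 31.3, 33.6 and 45.5 scaled reads in sham and 17.4, 13.8 and 19.2 in nano-TiO2. In the 1000 bases after the run it had 0 scaled reads in every library. A130012E19Rik, in an intron of Zfc3h1 (a nuclear exosome cofactor) on chromosome 10, had 31.2 scaled reads per kilobase before the run at positions 1204 to 1218 and 0.886 after it, as means over the 6 libraries. The step was smaller in Gm45819, with 30.6 before and 12.2 after, and in Gm42992, an intronic locus of Auts2, with 25.3 and 11.3. Gm42992 had no such step in sham 1, with 10.2 scaled reads in the 850 bases before the run and 14.4 in the 1025 bases after it. In the remaining libraries it had more before the run.

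TEC genes that share no exon base with another gene and lie inside one are called intron-only here. Summed over all of them, the density before such runs was above the density after them in every library. Their sequence was available for 1794 of 1806 loci, whatever their reads, and 383 of them held 440 runs of 10 or more adenines. In the 1000 to 150 bases before the runs, the density was 3.01, 3.75 and 3.59 scaled reads per kilobase in sham and 8.00, 7.46 and 6.32 in nano-TiO2. In the 1000 bases after the start of the runs it was 1.15, 1.24 and 1.39 in sham and 2.85, 2.29 and 2.00 in nano-TiO2. Both sides were higher in every nano-TiO2 library than in every sham library. The ratio of the density before to the density after the runs was 2.74 ± 0.25 (SD, n = 3) in sham and 3.08 ± 0.24 (SD, n = 3) in nano-TiO2, and these overlapped (exact two-sided permutation test, p = 0.2, where the smallest possible p is 0.1).

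**Figure D1:**
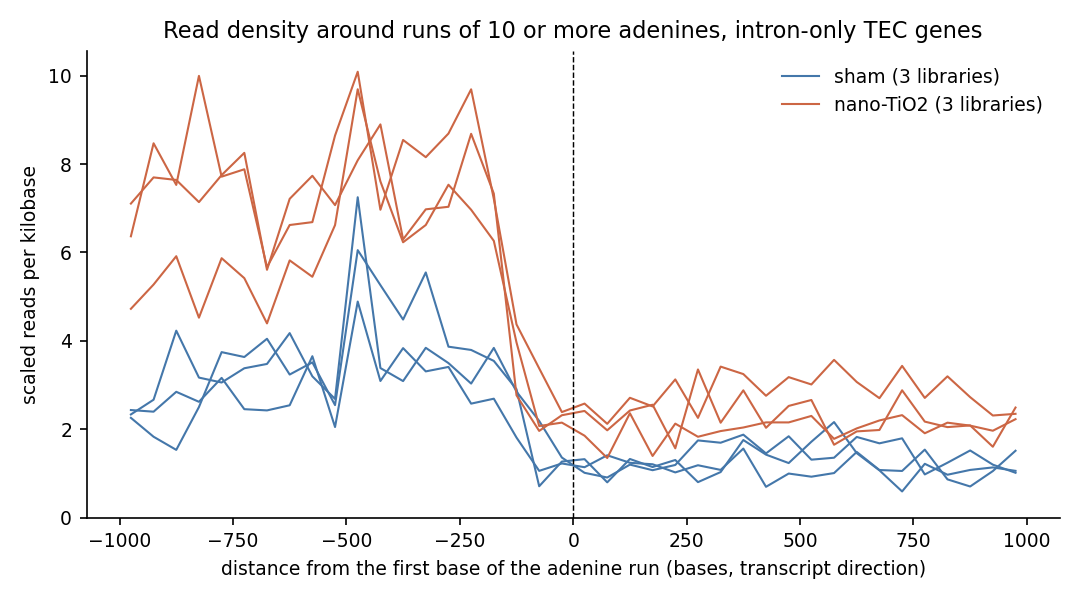
Scaled reads per kilobase in steps of 50 bases (vertical axis) against the distance from the first base of 440 runs of 10 or more adenines (horizontal axis, in transcript direction, runs at 0) in intron-only TEC genes, one line per library. In all 6 libraries the density falls within about 150 bases before the run and stays low after it, and the nano-TiO2 lines lie above the sham lines on most of both sides.

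The step was larger at longer runs, which are a subset of the shorter ones. For runs of at least 8 adenines the ratio of density before to after lay between 2.11 and 2.68 over the 6 libraries, for 12 between 3.42 and 4.40, and for 15 between 3.65 and 5.65. Of 189 runs of 10 or more with at least 500 bases of the locus on each side, 111 had more reads per base before and 39 after, and 39 had no read on either side. Without the 5 runs with the most reads before them, the ratio still ranged from 1.90 to 3.00. Runs of 10 or more thymines, which are adenine runs on the other strand, showed the mirror image more weakly: the density beyond the run, towards the 3′ end, was 1.61 to 2.28 times the density before it. The table does not separate strands, and profiles of gene pairs that share exon bases on opposite strands matched best at an offset of 225 bases, so the distance of the step from the run is uncertain by about that much. The part of priming in the step was not tested. Adenine runs were present in 34.1% of intron-only members with a sequence (76 of 223) and in 19.5% of the intron-only loci below the threshold (307 of 1571). The members were longer, with a median of 2597 against 1984 bases, and held 0.148 runs per kilobase against 0.105. Members with a run and members without one had median log2 fold changes of 1.31 and 1.07.

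The position of each locus was taken from the annotation on both strands, because the table counts a read in every gene that contains it. Of gene pairs with at least 400 shared exon bases on opposite strands, 86.4% of 435 had read sums within a factor of 2 of each other. By this measure 225 members were intron-only, 71 shared exon bases with the 3′ end of another gene (its last exon or the exon sequence after the stop codon), 96 shared exon bases elsewhere, 10 began within 5 kb downstream of another gene on the same strand, and 14 were intergenic. On the strand of the TEC gene alone, 228 were intronic, 17 exonic at a 3′ end, 11 exonic elsewhere, 32 downstream, 114 antisense to a gene and 14 intergenic. Of the intron-only members, 196 lay in a protein-coding host on their own strand and 14 in one on the other strand, while 15, Gm45819 among them, had no protein-coding host. The 210 with such a host fell into 153 genes, and 31 hosts held more than 1 of them, so these members do not all stand for separate transcripts.

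The TEC genes with the most reads per kilobase were those that share exon bases with abundant genes. All 10 at the top by this measure did. Gm10252 overlaps Ftl1 (ferritin light chain) on the other strand and had 32359 scaled reads per kilobase, Gm37376 lies wholly in exon sequence of Malat1 (a nuclear-retained long RNA) with 21628, and Gm49759 overlaps Pkm (pyruvate kinase) with 1214. The others were Gm44986 at Ndufab1 (a mitochondrial acyl carrier protein), Gm45760 at Got2 (mitochondrial aspartate aminotransferase), Gm44771 at Immt (a mitochondrial cristae protein), Gm37939 at Vps37b, Gm45236 at Gde1, Gm38056 at the pseudogene Gm6644 and Gm26596 at Atxn7l3b. The 3 TEC genes with the most reads held 56.5% of all TEC reads. Of the 167 members with shared exon bases, 153 had a tested partner. The log2 fold changes of 125 of these were within 0.5 of their partner's, and the median absolute difference, without regard to sign, was 0.14. Across these 153 pairs, which share reads, Pearson's r of the fold changes was 0.80 and Spearman's rho was 0.81.

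To ask whether gestational exposure changed the reads at these loci, reads were first summed over all TEC genes of a class, including those below the threshold. TEC genes took 0.292%, 0.246% and 0.262% of all reads of the table in sham and 0.372%, 0.402% and 0.320% in nano-TiO2. No nano-TiO2 library overlapped the sham libraries, and the means were 0.267% ± 0.023 and 0.364% ± 0.041 (SD, n = 3 each; exact two-sided permutation test, p = 0.1, the smallest that 3 against 3 can give). This depends on the scale: with the authors' size factors the sums were 73837 ± 4207 and 72752 ± 5610 scaled reads, which overlapped (exact two-sided permutation test, p = 0.8). The scaled totals of the libraries were 25175230, 31758086 and 26665197 in sham and 21074486, 18122493 and 20965662 in nano-TiO2.

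The intron-only loci rose on both scales, as did the loci at 3′ ends, the intergenic loci and the downstream loci described below. The 1806 intron-only TEC genes took 207, 181 and 225 RPM in sham and 629, 667 and 462 in nano-TiO2, a ratio of means of 2.87. With the authors' scaling they summed to 5209, 5760 and 6006 scaled reads in sham and 13265, 12087 and 9678 in nano-TiO2, a ratio of 2.06. The groups did not overlap on either scale. The 1581 intron-only loci with a mean under 10, which the threshold left out, showed the same direction, with 1673 ± 44.3 scaled reads in sham and 3883 ± 561 in nano-TiO2 (SD, n = 3 each).

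The ratios of mean RPM were smaller in the other classes, a difference between classes that was not tested. Loci at 3′ ends took 747 ± 119 in sham and 1371 ± 186 in nano-TiO2, intergenic loci 22.4 ± 1.33 and 41.7 ± 3.59, and downstream loci 16.1 ± 2.98 and 32.6 ± 1.02 (SD, n = 3 each). Loci that share other exon bases took 1677 ± 205 and 1614 ± 313, and here the groups overlapped in RPM. At 3′ ends, Gm37376 in Malat1 took 202 ± 55.3 in sham and 690 ± 205 in nano-TiO2, where it held the most reads of the class, while Gm49759 at Pkm took 203 ± 41.2 and 196 ± 51.7 (SD, n = 3 each). Without Gm37376 the ratio of the class fell from 1.84 to 1.25, and its groups remained separate. Over the 5 classes in RPM the exact two-sided permutation test gave p = 0.1 for 4 and p = 0.8 for loci that share other exon bases. After Benjamini-Hochberg adjustment these were 0.125 and 0.8, and with 3 against 3 none could pass 0.05. With the authors' scaling the loci that share other exon bases were separate and lower in nano-TiO2. They summed to 47857, 51770 and 39993 scaled reads in sham and 30131, 35794 and 30126 in nano-TiO2. The other classes stayed separate and higher on that scale. Mean scaled reads in sham and nano-TiO2 were 20576 and 27569 at 3′ ends, 620 and 834 for intergenic loci, and 441 and 655 for downstream loci.

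**Figure D2:**
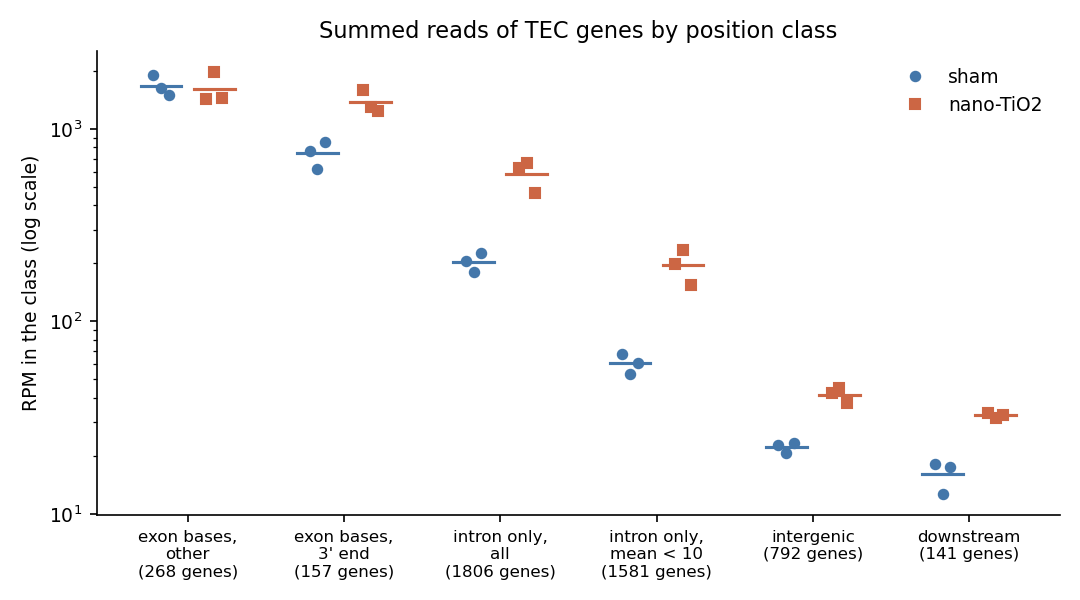
Sum of RPM over all TEC genes of a position class (vertical axis, log scale) in the 3 sham (circles) and 3 nano-TiO2 libraries (squares), with the mean of each group as a bar. The groups are separate in every class but the first; intron-only loci lie at 181 to 225 in sham and 462 to 667 in nano-TiO2.

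Gene by gene, limma on log2(scaled reads + 1), fitted to all 18496 genes with a mean of 10 or more, called 121 members higher and 10 lower in nano-TiO2 at an adjusted p under 0.05. Among all genes tested, 14.9% were called higher and 12.6% lower. The median log2 fold change was 0.71 over the members and -0.04 over all genes. Of the intron-only members, 93 of 225 were called higher and 1 lower, with a median of 1.19. Of the 71 members at 3′ ends, 18 were called higher and 2 lower (median 0.40), and of the 96 that share other exon bases, 8 were called higher and 7 lower (median -0.02). The 10 downstream members had 1 call, Gm43461 near D5Ertd605e, and the 14 intergenic members had 1, Gm37320, both higher and both named after their values were seen.

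These counts follow a threshold on the mean of both groups, and 98 intron-only members reached it only through the nano-TiO2 libraries against 1 only through the sham libraries. Among the 127 whose sham mean alone was at least 10, 38 were called higher and 1 lower, with a median of 0.66. With every gene that had a read in the table fitted, limma called 178 of the 1372 intron-only loci in the fit higher (434 had no read) and 0 lower at an adjusted p under 0.05, where 8.12% of the 33171 genes were called higher and 5.52% lower. In that fit 1126 intron-only loci had a log2 fold change above 0 and 246 below it. At an unadjusted p under 0.05 the same fit had 392 intron-only loci higher and 7 lower; with the threshold, edgeR and DESeq2 called 1 and 0 intron-only members lower.

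Single libraries moved the counts. Leaving out sham 2, nano-TiO2 1 or nano-TiO2 3 left 59, 29 and 57 intron-only members called higher, where 8.57%, 6.99% and 8.04% of all genes were, and leaving out another library left 68 to 79. Without both sham 2 and nano-TiO2 3, limma called 0 genes of any class (0% of all tested). At an unadjusted p under 0.05 it had 110 intron-only members higher and 1 lower, a count given without the share of all genes. The median log2 fold change in that fit was 1.33 for the intron-only members and -0.05 for all genes. After removal of each library's trend over gene length and GC content, 38 intron-only members were called higher, where 3.33% of all genes were. Scaling by library totals alone moved the median of all genes by 0.46, from -0.04 to 0.42, and called 202 members higher and 0 lower, where 31.4% and 0.189% of all genes were; at an unadjusted p under 0.05 it also had 0 members lower.

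**Figure D3:**
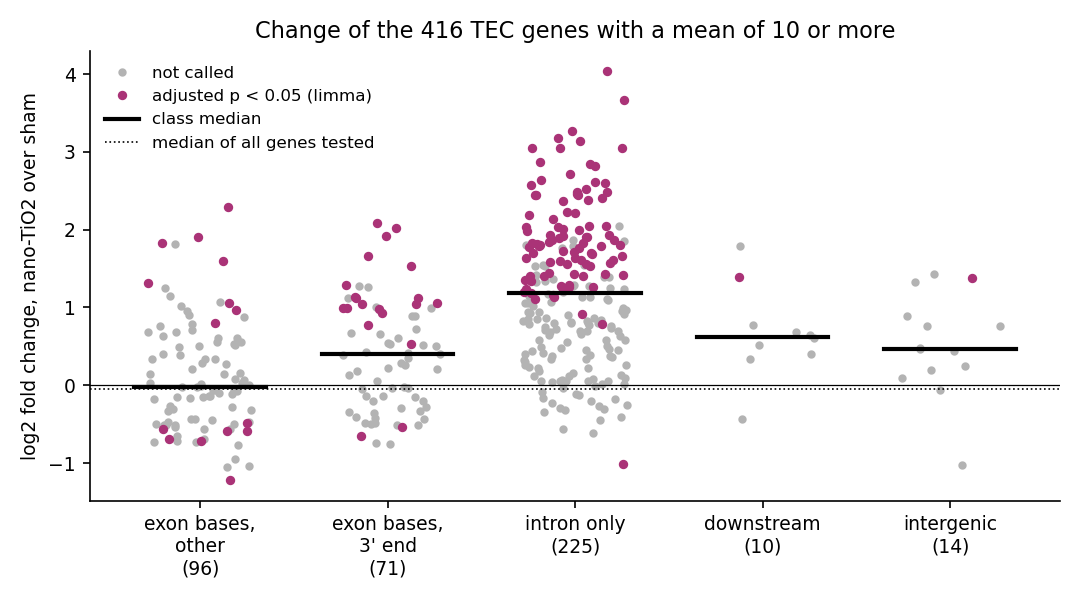
Log2 fold change of nano-TiO2 over sham (vertical axis) for each of the 416 members by position class, with called members in purple, class medians as solid bars and the median of all genes tested as a dotted line. The intron-only class has a median of 1.19 with 93 members called higher, and the class that shares other exon bases is spread around 0.

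Other classes of genes in the same fit give the scale. Of 42 sense_intronic genes, non-coding genes annotated inside introns, 15 were called higher and 0 lower, with a median log2 fold change of 1.02. Of 13914 protein-coding genes, 17.7% were called higher and 11.1% lower (median 0.02), and of 290 lincRNA genes 11.4% and 4.48% (median 0.17). Processed pseudogenes, intronless copies of mature mRNAs, went the other way, with 28 of 2461 called higher and 676 lower (median -0.47). At an unadjusted p under 0.05 limma had 1 sense_intronic gene lower, and edgeR and DESeq2 called 0 lower.

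Nuclear-retained RNAs rose in the same libraries. All 5 tested members of that list (Malat1, Neat1, Meg3, Kcnq1ot1 and Firre, of 6 listed) were called higher, with a median log2 fold change of 1.57, and their summed level was 409 to 605 RPM in sham and 1358 to 2062 in nano-TiO2. Snhg11, the sixth, was below the threshold. Of the 8 erythroid markers, Hba-a1, Klf1 and Slc4a1 were called lower, with a summed level of 90227 to 171507 RPM in sham and 45926 to 86522 in nano-TiO2. Of the 8 cardiomyocyte markers, Actc1 (cardiac actin) and Myl2 (ventricular myosin light chain) were called lower, with log2 fold changes of -0.49 and -0.65 (limma, adjusted p = 0.0191 and 0.0196), and the median over the list was -0.22. Scaled by library totals alone these were -0.02 and -0.18 and neither was called, nor was any of the 3 erythroid markers. On that scale Nppa and Myl7 were called higher, with log2 fold changes of 0.81 and 0.51 (limma, adjusted p = 0.00198 and 0.0390), where 31.4% of all genes were. With the authors' scaling they had 0.34 and 0.04 and were not called. No hepatocyte marker (limma, smallest adjusted p = 0.128) and no lung marker (smallest adjusted p = 0.641) was called. The part of these RNAs in the reads of the TEC genes was not tested.

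The largest rises among called members with a mean of at least 50 and separate groups included 5 intron-only loci. Gm7265, in Nedd4 (a ubiquitin ligase needed for heart development), had 33.9, 33.6 and 16.4 scaled reads in sham and 169, 137 and 88.1 in nano-TiO2. Every nano-TiO2 library was above every sham library, and the log2 fold change was 2.21 ± 0.36 (SE; limma, adjusted p = 0.00541). Gm42899, in Lhfp, had 42.3, 32.3 and 29.1 in sham and 187, 177 and 69.7 in nano-TiO2, with a log2 fold change of 1.92 ± 0.38 (SE; limma, adjusted p = 0.00883). The lowest value of the exposed group, in nano-TiO2 3, was still above all sham values.

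Gm40309, in Ube2k (a ubiquitin-conjugating enzyme), had 61.8, 51.7 and 42.7 scaled reads in sham and 180, 188 and 101 in nano-TiO2. Its log2 fold change was 1.53 ± 0.29 (SE; limma, adjusted p = 0.00763), and Ube2k itself had a log2 fold change of 0.13 (limma, adjusted p = 0.447). Gm42992, in Auts2 (a chromatin regulator), had 57.6, 46.6 and 20.0 in sham and 85.8, 172 and 75.1 in nano-TiO2, with a log2 fold change of 1.43 ± 0.44 (SE; limma, adjusted p = 0.0392). Its groups were separate by the smallest margin of the 5, between 57.6 and 75.1.

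Atp2a2 encodes SERCA2, the calcium pump of the sarcoplasmic reticulum of cardiomyocytes. Gm43359, in an intron of Atp2a2 on the same strand, had 73.6, 81.5 and 81.9 scaled reads in sham and 262, 183 and 196 in nano-TiO2, a log2 fold change of 1.41 ± 0.20 (SE; limma, adjusted p = 0.00426). Gm43361, on the other strand of Atp2a2, had 73.6, 55.6 and 89.1 in sham and 354, 206 and 233 in nano-TiO2, a log2 fold change of 1.83 ± 0.26 (SE; limma, adjusted p = 0.00414). Of its reads 0.847% fell on exon bins of Atp2a2. With bins within 300 bases of other exons left out, its mean fell from 169 to 142 scaled reads. The log2 fold change was then 1.92 ± 0.25 (SE; limma, adjusted p = 0.00381). Both loci were separate between the groups. The exons of Atp2a2 had a log2 fold change of 0.63 (limma, adjusted p = 0.0427). Since strands are not separated, reads at Gm43361 may belong to the Atp2a2 strand.

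The remaining large rises were at loci that share exon bases with a long non-coding RNA. Gm37376 had 4262, 5459 and 7100 scaled reads in sham and 19455, 9727 and 12781 in nano-TiO2, a log2 fold change of 1.29 (limma, adjusted p = 0.00965), next to 1.27 for Malat1, whose exon holds it. Gm37829, at 2900076A07Rik, had a log2 fold change of 1.53 (limma, adjusted p = 0.0127) against 0.87 for that partner, but only 288 of its 2213 bases and 24.8% of its reads lay on exons of another gene. In its 1150 bases more than 300 bases from any other exon it had 19.5, 9.05 and 20.9 scaled reads in sham and 86.9, 42.6 and 76.6 in nano-TiO2, a log2 fold change of 2.01 ± 0.41 (SE; limma, adjusted p = 0.00941). Of the 225 intron-only members 41.3% were called higher, where 14.9% of all genes tested were. The 12 hosts with 3 or more intron-only members held 50 of them, of which 15 were called higher. These calls were spread over 9 hosts, with 3 of 5 in Auts2 and 2 of 3 in Nedd4 (Gm42992 and Gm7265 included), 3 of 4 in Camk2d (a calcium-dependent kinase of the heart) and 2 of 4 in Ank2 (ankyrin B, a membrane scaffold). The other 3 hosts were Pcdh7, described below, and Cacnb2 and Zfpm2, in which limma, edgeR and DESeq2 called 0 of 6 members and limma had 1 higher at an unadjusted p under 0.05. These hosts were named after their values were seen. The 4 members in Ank2 together had 14.4, 16.8 and 34.6 scaled reads in sham, so not all of them had a sham mean of 10. The largest fold change of any member was that of Gm37949 in Ppp1r12b, a subunit of myosin phosphatase, with 19.5, 0 and 5.46 scaled reads in sham and 96.7, 115 and 50.6 in nano-TiO2; its sham mean was under 10.

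**Figure D4:**
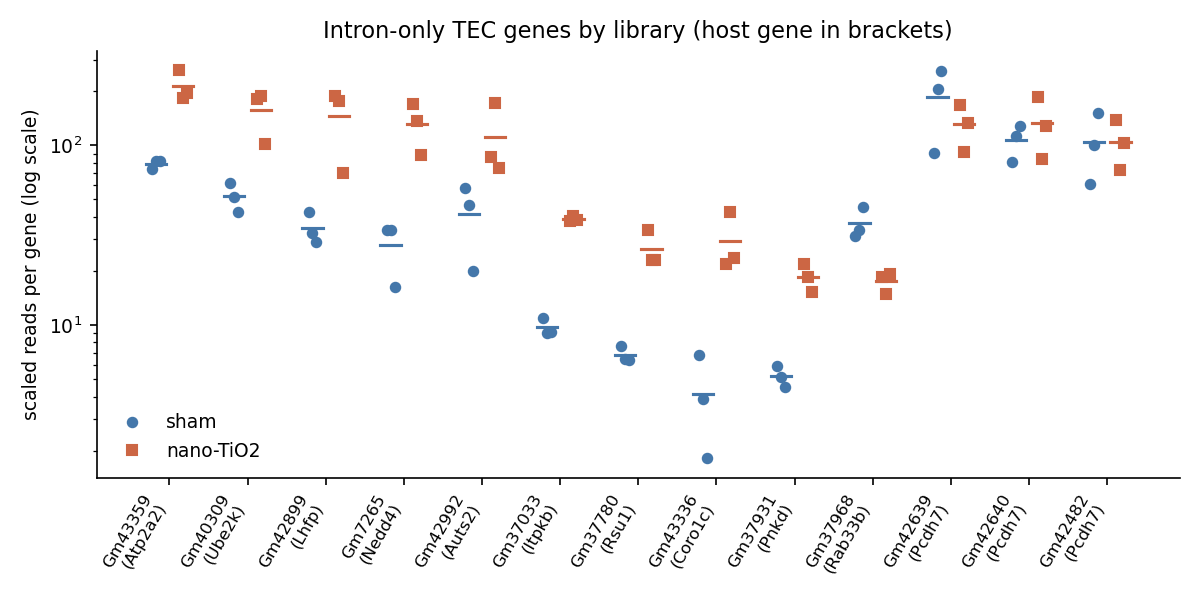
Scaled reads per gene (vertical axis, log scale) of 13 intron-only TEC genes in the 3 sham libraries (circles) and the 3 nano-TiO2 libraries (squares), with group means as bars and the host gene in brackets. The first 9 loci are separate and higher in nano-TiO2, Gm37968 is separate and lower, and the 3 loci in Pcdh7 overlap.

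All 8 falls with a mean of at least 50 and separate groups were at loci that share exon bases with another gene. Gm10252 had 34579, 39527 and 26346 scaled reads in sham and 17803, 24375 and 18907 in nano-TiO2, a log2 fold change of -0.71 ± 0.18 (SE; limma, adjusted p = 0.0198), and Ftl1 had -0.71. Gm45760 fell by 0.56 on the log2 scale (limma, adjusted p = 0.0294) and so did Got2. D730044K07Rik fell by 0.58 (limma, adjusted p = 0.0300) next to Rpl30, a ribosomal protein gene, at -0.64. Gm43511 fell by 0.65 (limma, adjusted p = 0.0293) next to Mrps18c, a mitochondrial ribosomal protein gene, at -0.63. Gm45444 at Cyth2 fell by 0.69 (limma, adjusted p = 0.0324) while Cyth2 had -0.41.

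Gm38056 and Gm44510 lie inside Plcl1 and Nipa1 and overlap the processed pseudogenes Gm6644 and Rps12l1. Their log2 fold changes were -0.48 and -0.58 (limma, adjusted p = 0.0166 and 0.0352), while the exons of Plcl1 and Nipa1 had 0.47 and 0.77 with adjusted p of 0.331 and 0.151. Scaling by library totals called none of these falls. The high-density members Gm44986, Gm37939, Gm44771 and Gm45236 had log2 fold changes of -0.49, -0.49, 0.09 and -0.04 and were not called, and Gm26596 had 0.53 (limma, adjusted p = 0.0289) next to 0.59 for Atxn7l3b.

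Gm49759 at Pkm held both patterns. As a whole it had 6010, 5019 and 5671 scaled reads in sham and 3591, 4630 and 3398 in nano-TiO2, a log2 fold change of -0.53 ± 0.15 (SE; limma, adjusted p = 0.0272), close to that of Pkm at -0.58. In its 2112 bases more than 300 bases away from any exon of another gene, it had 30.5, 16.8 and 19.1 scaled reads in sham and 47.8, 97.9 and 46.7 in nano-TiO2. There the log2 fold change was 1.45 ± 0.38 (SE; limma, adjusted p = 0.0221), so the direction reversed once the exonic reads were left out. Gm38056 did not reverse. In its 3452 bases that far from other exons it had 405, 400 and 337 scaled reads in sham and 290, 237 and 334 in nano-TiO2. Its log2 fold change there was -0.42 ± 0.18 (SE; limma, adjusted p = 0.113). With bins within 300 bases of other exons left out for every TEC gene, 279 members kept a mean of 10, of which limma called 102 higher and 1 lower, where 14.9% and 12.7% of all genes were.

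The change of a TEC gene was next compared with that of the gene that contains it. For 208 pairs on the same strand with no exon base in common, in 153 hosts, the median log2 fold change was 1.24 for the TEC genes and 0.85 for the hosts. This order depends on the threshold: 96 of these TEC genes had a sham mean under 10 and so became members through the nano-TiO2 libraries alone. In the other 112 pairs, with a sham mean of at least 10, the medians were 0.72 for the TEC genes and 0.93 for the hosts. That cut in turn favours loci that are high in sham, so it cannot settle the order. Among the 153 hosts of all 208 pairs, 87 were called higher and 6 lower, where 17.7% and 11.1% of all protein-coding genes tested were. In 61 of the 208 pairs both were called higher, in 34 only the TEC gene and in 72 only the host. The host was called lower in 4 of the 34. In the 112 pairs with a sham mean of at least 10, these counts were 29, 9, 45 and 1. Their 78 hosts had 47 calls higher and 2 lower. Across the 208 pairs, Pearson's r of the fold changes was -0.10 and Spearman's rho -0.14, and across the 112 they were 0.05 and -0.01. Several pairs share a host, and all share the 6 libraries. For the 21 pairs with exon bases in common r was 0.72 and rho 0.66.

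**Figure D5:**
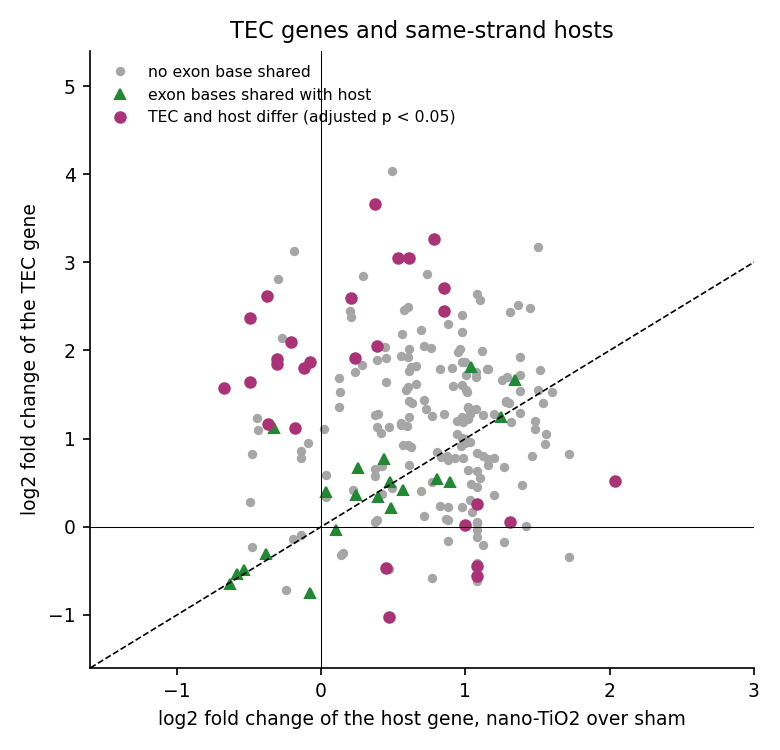
Log2 fold change of a TEC gene (vertical axis) against that of its same-strand host (horizontal axis), nano-TiO2 over sham, for 208 pairs without shared exon bases (grey circles) and 21 with them (green triangles), with the line of equal change dashed. Pairs with a called difference are purple, of which 1 shares exon bases; triangles lie near the line, and grey points scatter widely at hosts with a log2 fold change between 0 and 1.5.

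The difference between a TEC gene and its host was tested directly on log2(TEC + 1) minus log2(host + 1) in each library, together with all other gene types inside protein-coding hosts. Of 229 TEC pairs, 20 rose more than the host and 8 less (limma, adjusted p under 0.05), where 3.05% and 4.99% of all 1442 pairs did. The median difference was 0.32 for TEC pairs and -0.005 for all pairs. Of the 20 TEC genes above their host, 17 had a sham mean under 10. Among the 129 TEC pairs with a sham mean of at least 10, 3 rose more than the host and 8 less. Their median difference was -0.05, so the direction of the median reversed. A cut on the sham mean favours TEC genes that are high in sham, so neither median is free of the choice of loci. Processed pseudogenes without shared exon bases had a median difference of -0.83 over 163 pairs and sense_intronic genes 0.22 over 42. The calls rested on all 6 libraries: without sham 1, sham 2, sham 3 or nano-TiO2 3, the TEC pairs called above their host were 4, 1, 9 and 1, where 0.555%, 0.0693%, 1.66% and 0.208% of all pairs were. Without nano-TiO2 1 or nano-TiO2 2 limma called 0 TEC pairs above their host (0% of all pairs), with 39 and 32 at an unadjusted p under 0.05.

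Of the 5 pairs with the smallest adjusted p, 4 were TEC genes that rose while the host was not called higher. All 4 became members only through the nano-TiO2 libraries in which they were high. Gm37033, in Itpkb (an inositol phosphate kinase), had 11.0, 9.05 and 9.09 scaled reads in sham and 38.0, 40.3 and 38.3 in nano-TiO2. Itpkb had 747, 771 and 745 in sham and 588, 610 and 627 in nano-TiO2. The groups were separate in opposite directions, and the difference of the log2 fold changes was 2.21 ± 0.14 (SE; limma, adjusted p = 0.00722).

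Gm37780, in Rsu1 (a partner of integrin-linked kinase), had 7.62, 6.47 and 6.37 scaled reads in sham and 33.7, 23.0 and 23.0 in nano-TiO2, a difference from Rsu1 of 1.92 ± 0.21 (SE; limma, adjusted p = 0.0187). Gm43336, in Coro1c (an actin-binding protein), had 6.77, 3.88 and 1.82 in sham and 21.7, 42.6 and 23.7 in nano-TiO2, a difference of 2.99 ± 0.33 (SE; limma, adjusted p = 0.0193). Gm37931, in Pnkd, had 5.93, 5.17 and 4.55 in sham and 21.7, 18.4 and 15.3 in nano-TiO2, a difference of 2.13 ± 0.27 (SE; limma, adjusted p = 0.0270), and Pnkd was itself called lower at -0.49. These 4 loci had few reads, with sham means of 4.16 to 9.72, so all of them became members only through the nano-TiO2 libraries. Their differences from the host describe loci chosen in that way, and the adjusted p-values do not correct for that choice.

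Gm37968 in Rab33b, whose sequence is shown above, was the only intron-only member called lower. It had 31.3, 33.6 and 45.5 scaled reads in sham and 18.5, 15.0 and 19.2 in nano-TiO2, while Rab33b had 187, 160 and 203 in sham and 265, 246 and 250 in nano-TiO2. The difference of the log2 fold changes was -1.49 ± 0.16 (SE; limma, adjusted p = 0.0187).

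Pcdh7 (protocadherin 7, a cell adhesion protein) held 13 intron-only members, more than any other host. Pcdh7 itself was called higher, with 653, 697 and 850 scaled reads in sham and 2040, 1054 and 1711 in nano-TiO2 and a log2 fold change of 1.08 ± 0.23 (SE; limma, adjusted p = 0.0116). The 13 TEC genes together had 485, 811 and 1180 in sham and 1060, 565 and 774 in nano-TiO2, which overlap. Their log2 fold changes ran from -0.62 to 0.84 with a median of 0.04, and limma, edgeR and DESeq2 called 0 of them. By an unadjusted p under 0.05 limma had 1 of the 13 higher and 0 lower. The largest, Gm42639, had 90.6, 207 and 260 in sham and 168, 92.1 and 133 in nano-TiO2. In the test of the difference from Pcdh7, Gm42479, Gm42481 and Gm42640 were below it, by -1.64, -1.53 and -0.82 (limma, adjusted p = 0.0350, 0.0356 and 0.0451), and the other 10 did not pass.

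The level of intron-only loci was low beside that of their hosts. Over 1340 such TEC genes, whatever their reads, in 788 protein-coding hosts with a mean of at least 10, the TEC density was 1.61, 1.71 and 1.80 scaled reads per kilobase in sham and 4.15, 3.81 and 3.02 in nano-TiO2. Host exons had 71.3, 70.7 and 77.2 in sham and 85.4, 76.1 and 83.1 in nano-TiO2. The TEC density was thus 2.25%, 2.42% and 2.33% of the host density in sham and 4.85%, 5.00% and 3.64% in nano-TiO2. The groups did not overlap (exact two-sided permutation test, p = 0.1, the smallest possible).

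At the threshold, the 3 members just inside were Gm47641, Gm47572 and Gm49449, with means of 10.1, 10.1 and 10.2 scaled reads. The 3 TEC genes just outside were Gm44022, Gm37297 and 4833421G17Rik, with 9.97, 9.94 and 9.93. The last had 2.54, 1.29 and 3.64 in sham and 19.6, 10.4 and 22.2 in nano-TiO2. Of the 416 members 187 had a mean under 20 and 61 a mean of at least 100, and only 6 of those 61 were intron-only. A further 958 TEC genes had no read in any library.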

How the data were processed

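The input libraries of 3 sham and 3 nano-TiO2 pools were used. The deposited table holds a signal in bins of 25 bases for 48505 genes, which the authors made by dividing reads by 1 size factor per library; multiplied back, 100% of the values were whole numbers (tolerance 0.001). Named without roles in the submitters' processing notes are the build GRCm39, DESeq2 1.34.0, HISAT2 2.2.1 and Salmon 1.5.2. The Salmon files hold estimated counts and TPM per transcript, per the file headers. They hold 0 TEC genes, so their expected counts were rounded and used with edgeR for host genes alone, and TPM was not analysed here. Positions, types and sequences came from GENCODE M21, a GRCm38 annotation that matched 47897 genes; no genome coordinates are given because the builds differ.

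Bins were summed per gene. Genes with a mean of at least 10 were tested with limma 3.58.1 (trend and robust) on log2(value + 1), calling an adjusted p (Benjamini-Hochberg) under 0.05; adjusted p-values are limma's throughout unless edgeR or DESeq2 is named. The count tests on recovered reads used edgeR 4.0.16 and DESeq2 1.42.0. Counts at an unadjusted p under 0.05 are given without the share of all genes at that p, so they have no background. TEC minus host differences were fitted over 1442 pairs, and sums were compared by exact permutation in scipy 1.17.1. The fit was tested on simulated data. Named members were the 10 with most reads per kilobase, up to 8 rises and 8 falls (called, groups separate, mean of at least 50), the 5 pairs with the smallest adjusted p and 3 loci on each side of the threshold; others are said to be chosen after their values were seen. Members and lists were chosen with earlier results of these data known. Position classes on either strand and the search for adenine runs were added after seeing the data.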

Additional observations from a re-analysis of the deposited data

How the results depend on the processing

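Among members, 121 were called higher and 10 lower. The count of higher calls stayed within 1.5 times under other pseudocounts (0.1 and 5), no filter, TMM, edgeR, DESeq2 and removal of exon bins. It was 24 with a mean of at least 50 (98 members tested), 202 with library totals only and 50 after removing length and GC trends. Among intron-only members these were 10, 142 and 38 against 93. Of all genes tested, the same settings called 2575 of 14174, 5806 of 18496 and 614 of 18463 higher. Without sham 2 and nano-TiO2 3, limma called 0 members higher and 0 lower, with 136 and 9 at an unadjusted p under 0.05. Leaving out one library gave 34 to 101 higher and 0 to 9 lower, and 29 to 79 higher and 0 lower among intron-only members. Lower calls were 0 with library totals only, 6 without bins on other genes' exons and 1 without bins within 300 bases of them. The single lower intron-only call, Gm37968, was lost (0 calls) with no filter, library totals only, DESeq2, the replicate block, any 1 library left out, and without sham 2 and nano-TiO2 3; with a mean of at least 50 (0 calls) the locus was not tested. Its log2 fold change, -1.02, was -0.57 with library totals only and between -0.86 and -1.12 with one library left out. The fold change of Gm49759 reversed to 1.45 without bins within 300 bases of exons; the reads left out there explain that shift by construction, and the cause of the other shifts was not tested.

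For TEC genes against hosts, 20 were above and 8 below. A sham mean of at least 10 for the TEC gene was an alternative chosen after seeing the data, and it favours loci high in sham. In those 129 pairs the median difference reversed from 0.32 to -0.050, with 3 above and 8 below. With a mean of at least 50 these were 1 and 2 of 28 pairs, and for 138 pairs with hosts on the other strand 0 and 0, with 7 and 9 at an unadjusted p under 0.05. Leaving out one library gave 0 to 9 above and 0 to 4 below. With host changes from Salmon's estimated counts the median difference kept its sign. The difference in TEC share, 0.098 percentage points, kept its direction under all alternatives run and ranged from 0.079 to 0.12 with one library left out. It was 0.048 without bins within 300 bases of other genes' exons. With haemoglobin and mitochondrial genes out of the denominator it was 0.071, and the groups nearly met, at 0.392% in sham 2 and 0.394% in nano-TiO2 3. Downstream members were 32 with a 5 kb window, 21 with 2 kb and 58 with 10 kb.

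Replicate numbers did not pair the samples: same-numbered deviations correlated at -0.36, 0.01 and -0.08. With the replicate number as a block, 96 members were called higher and 3 lower, and 77 and 0 among intron-only members. In that fit 2154 of all 18496 genes were called higher and 1421 lower. With the same block 0 TEC pairs were called above and 0 below their hosts, with 54 and 18 at an unadjusted p under 0.05. Most intron-only members have few reads, which limits the precision of each.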
